A study of Mus musculus with 2 samples.

Results

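Jak1, Jak3, Stat3, Stat5a, Stat5b, Socs1, Socs2, Socs3, Cish and Pim1 form the signaling axis that runs from cytokine receptors through the Janus kinases (JAKs) and STAT transcription factors to the genes that feed back on it. They were taken as a fixed list of names, 10 of the 31053 genes in the count matrices, and all 10 had unique molecular identifiers (UMIs) in each library. Cytokine receptors that share the common gamma chain bring Jak1 and Jak3 together, and the kinases phosphorylate Stat5a and Stat5b, which enter the nucleus and bind DNA. Among the genes that STAT5 switches on are Cish and the SOCS genes, whose proteins bind receptors or JAKs and damp the signal, and Pim1, a serine/threonine kinase that favors survival and growth. In skin, dendritic epidermal T cells (DETCs), the γδ T cells that line the mouse epidermis, depend on cytokines of this family for their upkeep.

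The data were single-cell 3′ RNA counts from 2 libraries of sorted CD45+EpCAM-MHC-II- cells, each from ear epidermis of WT FVB/NJ female mice aged 8 weeks. One library, called isotype, came from mice injected intradermally (i.d.) with isotype control antibody 7 d before, and the other, called Skint1 antibody, from mice given anti-Skint1, directed at Skint1, a keratinocyte and thymic epithelial protein needed for DETC development. No allele differed between the groups, and both received an injection. Each group had n = 1, but the labels speak of mice, and how many animals went into each library is not stated outright in the sources used here. With 1 library per treatment, treatment and library cannot be told apart, cells are not replicates, and no test or p-value is given for any difference.

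Filtering kept cells with 500 to 2500 detected genes and no more than 12% of UMIs from mitochondrial genes, 4242 after isotype and 5961 after Skint1 antibody, and 5 kept barcodes occurred in both libraries. DETCs (at least 3 Trdc UMIs, at least 3 summed Cd3d, Cd3e and Cd3g UMIs, and no Trac, Cd4, Cd8a or Cd8b1) numbered 3544 and 4945 cells with 14659876 and 18706191 UMIs. Alpha-beta T (αβ T) cells (at least 1 Trac UMI and no Trdv4) numbered 197 and 213 with 800759 and 836438 UMIs. Cells of the ILC (innate lymphoid cell) rule (at least 3 summed Il7r, Rora and Gata3 UMIs, at most 2 CD3 UMIs and no Trdv4) numbered 82 and 139 with 382921 and 659467 UMIs, and 9 and 14 cells met both of these rules. A single UMI was thus worth 0.0682 and 0.0535 counts per 1000000 UMIs (CPM) in DETCs but 2.61 and 1.52 CPM in the ILC class. Levels below are CPM of the class total, and brackets hold 95% intervals that cover counting error only. A difference is read as a direction only where both libraries gave the same sign and neither interval held 0, and "past the fold" means at least 1.5-fold.

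The classes were checked against marker genes. DETCs held Trdv4, a variable gene of their receptor that the other rules exclude, at 978 and 789 CPM. Cd5, a marker of αβ T cells, was at 91.2 and 81.3 CPM in the αβ T class against 0.273 and 0.160 CPM in DETCs. Of the αβ T markers Trbc1 and Trbc2, both were also high in DETCs (1491 and 1250.3 CPM, and 1097 and 979 CPM), against 1115 and 935 CPM and 1215 and 1119 CPM in the αβ T class. Of the ILC markers outside the rule, Kit (83.6 and 111 CPM against 4.995 and 25.1 CPM in αβ T cells) and Il5 (20.9 and 27.3 CPM against 1.25 and 4.78 CPM) were higher in the ILC class than in αβ T cells in both libraries. Icos (172 and 167 CPM against 348 and 204 CPM), Il1rl1 (0 and 4.55 CPM against 33.7 and 25.1 CPM) and Klrg1 (0 and 0 CPM against 28.7 and 3.59 CPM) were lower in both. Csf2 (60.1 and 323 CPM against 131 and 159 CPM) and Il2ra (41.8 and 60.7 CPM against 77.4 and 52.6 CPM) were lower after isotype and higher after Skint1 antibody. The class is therefore named by its rule and not as a verified cell type. Genes of other cells were present there too. The summed level of 5 keratin genes was 483 CPM in the isotype and 3852 CPM in the Skint1 antibody library, against 16.8 and 28.4 CPM in DETCs, and 1 and 10 cells of the class held at least 5 keratin UMIs. Langerhans and myeloid genes were detected for 6 of 6 and 5 of 6 list members, with Cd74 at 763 and 1060.0 CPM. Among αβ T cells, 18 of 197 and 44 of 213 held at least 3 UMIs of Trdc, the γδ receptor constant gene. The summed level of 7 dermal γδ T cell genes was 591 and 557 CPM in αβ T cells and 439 and 368 CPM in the ILC class. In DETCs it was 57.3 and 52.8 CPM. The largest part was Maf, at 397 and 360 CPM in αβ T cells and 334 and 282 CPM in the ILC class. Tcrg-V4 and Tcrg-V6 were lower in both classes than in DETCs. The ILC class also depended on the filters. Without the upper limit on genes it grew to 134 and 220 cells with the keratin genes at 16765 and 18673 CPM, and with at most 5% mitochondrial UMIs only 16 and 20 cells were left.

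STAT dimers bind DNA at the palindrome TTCNNNGAA, which reads the same on both strands, so the RefSeq promoter windows of the members (GRCm38.p6, 250 bases before to 50 after each start) were searched for it. Of 32851 windows of all genes, 2726 (8.30%) held a match, and 150 (0.457%) held 2. Counted by gene, 9.55% of 27025 genes had a match. Windows were found for 9 of the 10 genes, Socs2 being the exception. Only Cish and Socs3 of these 9 had matches, and their sequences are shown because these 2 feedback genes differed in class pattern. Capitals mark the motif.
Cish, chr9:107296657-107296680, plus strand: ttTTCCTGGAAagTTCTTGGAAat
Socs3, site chr11:117969512-117969520, minus strand: ccagccTTCTTAGAAgggagg
Counted from 1 at an annotated start, the Cish pair began at positions 1 and 12, and the Socs3 site began 154 bases before its start. A match in these letters is a description and not a measured binding site. The windows of the other 7 genes held none, which says only that these letters were not in them.

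**Figure D1:**
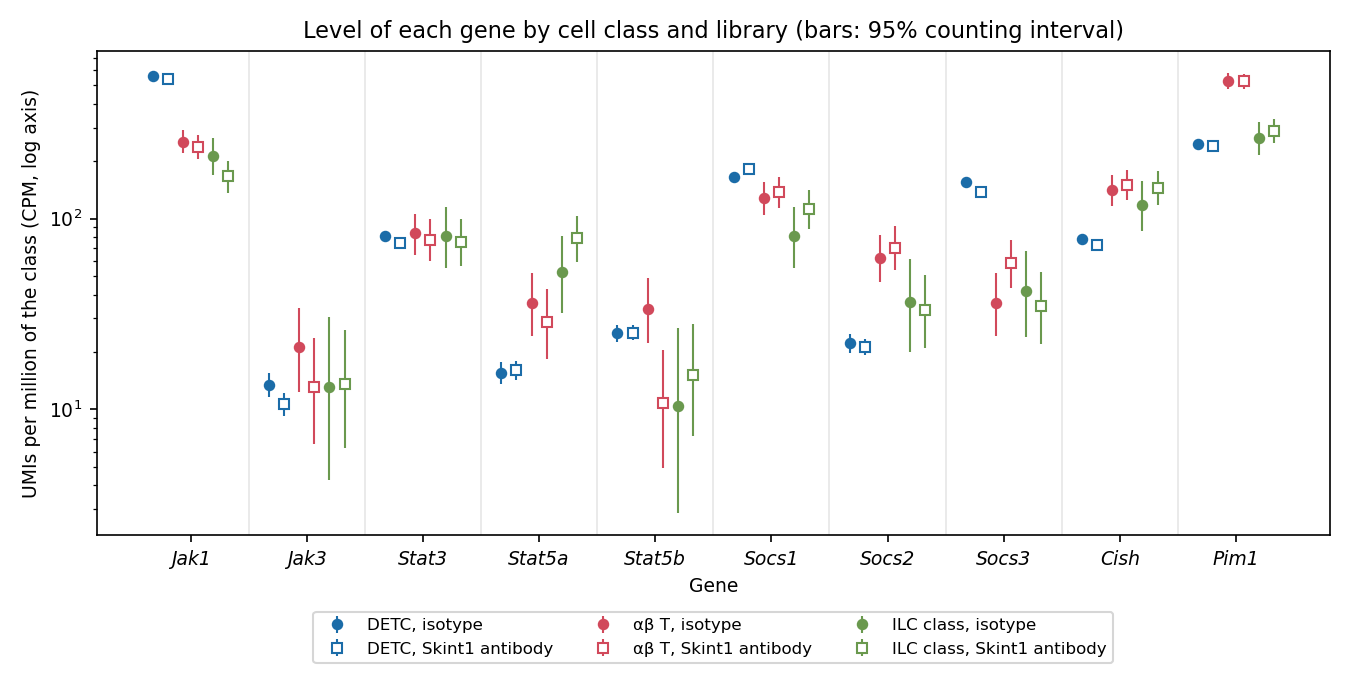
Level of each of the 10 genes (CPM, log axis) in DETCs, αβ T cells and the ILC class, with the isotype and Skint1 antibody library side by side and bars for the exact Poisson 95% interval. Jak1 is the highest of the 10 in DETCs at 559.8 and 538 CPM and Pim1 the highest in αβ T cells at 529 and 525 CPM.

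Jak1 (chromosome 4, 101152367 to 101265282, minus strand, GRCm38), the kinase used by all common gamma chain receptors, was the most abundant of the 10 transcripts in DETCs, at 559.8 CPM (548 to 572) after isotype and 538 CPM (528 to 549) after Skint1 antibody. It was lower in αβ T cells, at 254 and 238 CPM, and in the ILC class, at 214 and 167 CPM. The log2 ratio of αβ T cells over DETCs was -1.14 (-1.35 to -0.94) after isotype and -1.18 (-1.39 to -0.98) after Skint1 antibody, and that of the ILC class over DETCs was -1.39 (-1.72 to -1.07) after isotype and -1.69 (-1.97 to -1.42) after Skint1 antibody. The DETC level was therefore above both other classes in each library. Within the αβ T class, the Trdc-rich cells had more Jak1 (426 and 356 CPM) than the rest (236 and 202 CPM).

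Jak3 (chromosome 8, 71676296 to 71690575, plus strand), the kinase bound to the common gamma chain itself, was scarce in every class. It was at 13.4 CPM (11.6 to 15.5) after isotype and 10.6 CPM (9.21 to 12.2) after Skint1 antibody in DETCs, at 21.2 and 13.2 CPM in αβ T cells and at 13.1 and 13.6 CPM in the ILC class. All 4 log2 ratios over DETCs had intervals that held 0, the highest being 0.66 (-0.15 to 1.38) for αβ T cells in the isotype library. No class order can be read for it at this depth. Insl3, on the same strand, overlaps Jak3 by 1362 bases, and Gm12785 overlaps Jak1 on its strand, so reads from these stretches could not be told apart and the Jak3 count is uncertain. Each UMI counts 1 captured molecule near its 3′ end and levels were not divided by gene length, so the levels of Jak1 and Jak3 rank transcripts and not proteins.

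Stat3 (chromosome 11, 100885098 to 100939540, minus strand), which several cytokine receptors activate, had levels that could not be told apart between the 3 classes. Its levels were 81.5 and 74.1 CPM in DETCs, 83.7 and 77.7 CPM in αβ T cells and 81.0 and 75.8 CPM in the ILC class. The αβ T over DETC log2 ratio was 0.038 (-0.34 to 0.39) after isotype and 0.069 (-0.31 to 0.43) after Skint1 antibody. The ILC over DETC ratio was -0.0099 (-0.57 to 0.50) after isotype and 0.033 (-0.40 to 0.44) after Skint1 antibody, so these data leave room for a difference of nearly 1.5-fold. With at most 5% mitochondrial UMIs the ILC ratios were -1.75 and -0.87, past the fold.

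Stat5a (chromosome 11, 100859351 to 100885169, plus strand) and Stat5b (chromosome 11, 100780731 to 100850724, minus strand) are neighboring genes for the paired STAT5 proteins and did not share a class pattern. Stat5a was at 15.6 CPM (13.6 to 17.7) after isotype and 15.98 CPM (14.2 to 17.9) after Skint1 antibody in DETCs. It was at 36.2 CPM (24.3 to 52.0) and 28.7 CPM (18.4 to 42.7) in αβ T cells, and at 52.2 CPM (31.9 to 80.7) and 78.9 CPM (58.9 to 103) in the ILC class. The lowest levels of Stat5a were thus in DETCs. The ILC class was above αβ T cells after Skint1 antibody, at a log2 ratio of 1.46 (0.73 to 2.22), while after isotype the interval held 0, at 0.53 (-0.37 to 1.40). The ILC over DETC log2 ratio was 1.75 (1.01 to 2.41) after isotype and 2.30 (1.85 to 2.73) after Skint1 antibody, the largest positive ratio among the 10 genes for these classes in both libraries. The isotype value rested on 20 UMIs, 75% of them in 10 cells, and was 0.10 without the 10 highest cells of each class and 0.19 without the upper limit on genes. Without that limit the Skint1 antibody value was 0.81, still past the fold. For αβ T cells over DETCs the ratio was 1.22 (0.61 to 1.78) after isotype and 0.84 (0.18 to 1.45) after Skint1 antibody. Without the 10 highest cells the isotype value was 0.21. The Skint1 antibody value rested on 24 UMIs, and went to -0.093 without these cells and to -0.15 after thinning.

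Stat5b was at 25.03 and 25.2 CPM in DETCs, 33.7 and 10.8 CPM in αβ T cells and 10.4 and 15.2 CPM in the ILC class. In αβ T cells the libraries disagreed in sign, with a log2 ratio over DETCs of 0.43 (-0.19 to 0.99) after isotype and -1.23 (-2.36 to -0.29) after Skint1 antibody. The ILC over DETC ratios were negative in both libraries, -1.26 and -0.73, but both intervals held 0. In DETCs, the class with most UMIs for both, Stat5b was above Stat5a in each library. As close paralogs, Stat5a and Stat5b can lose or share reads from identical stretches. The 3′ ends of Stat5a and Stat3 lie on opposite strands and overlap by 72 bases, and how strand was handled in counting is not given in the sources used here.

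**Figure D2:**
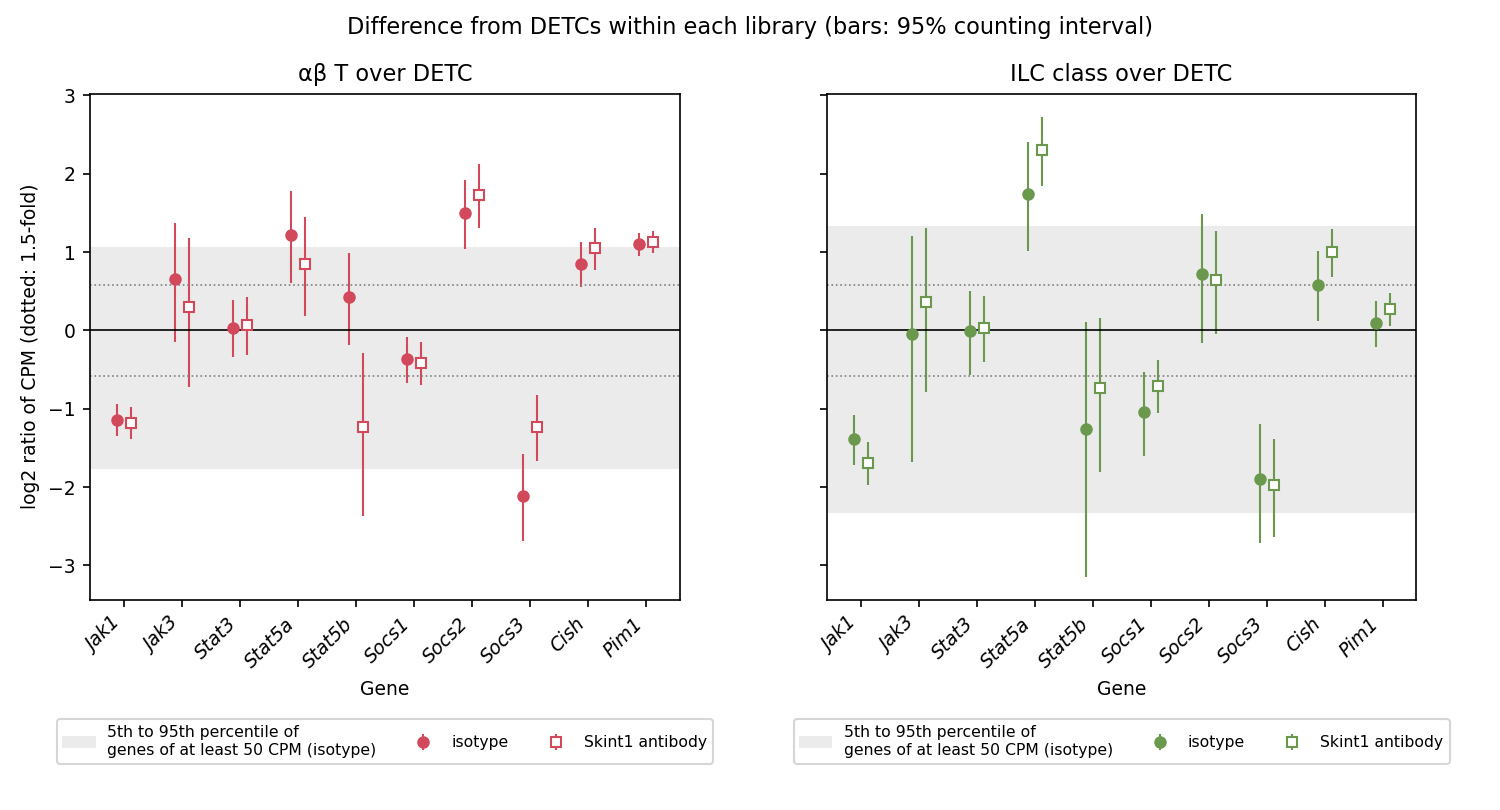
Log2 ratio of CPM between classes for the 10 genes, αβ T over DETC and ILC over DETC, with 1 point per library and bars for the exact 95% interval; dotted lines mark 1.5-fold. Jak1, Socs1 and Socs3 lie below 0 and Stat5a and Cish above 0 in both comparisons and both libraries, with no interval holding 0.

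The feedback inhibitors separated into those that were higher in DETCs and those that were lower. Socs3 (chromosome 11, 117966079 to 117970047, minus strand), which binds certain cytokine receptors together with their JAKs, was at 156 CPM (149.7 to 163) after isotype and 137 CPM (132 to 143) after Skint1 antibody in DETCs. It was at 36.2 CPM (24.3 to 52.0) and 58.6 CPM (43.3 to 77.4) in αβ T cells and at 41.8 CPM (23.9 to 67.9) and 34.9 CPM (22.1 to 52.3) in the ILC class. DETCs were highest in each library, and the intervals did not overlap those of either other class. The log2 ratio of αβ T cells over DETCs was -2.11 (-2.69 to -1.58) after isotype and -1.23 (-1.67 to -0.82) after Skint1 antibody, and of the ILC class over DETCs -1.90 (-2.71 to -1.20) after isotype and -1.98 (-2.64 to -1.39) after Skint1 antibody. The ILC difference was -0.089 and -0.34 without the upper limit on genes and -0.099 and -0.092 with at most 5% mitochondrial UMIs, all inside 1.5-fold.

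Few cells carried the Socs3 of the small classes. In the ILC class of the isotype library, 1 cell held 10 of the 16 Socs3 UMIs. In the Skint1 antibody library 16 of the 23 UMIs lay in the 10 keratin-rich cells, which had 199.8 CPM, and the level without them was 12.1 CPM. Among αβ T cells the Trdc-rich cells had 119.8 and 155 CPM and the rest 27.6 and 29.6 CPM. Without these cells αβ T cells in both libraries and the ILC class after Skint1 antibody lay further below DETCs, while the ILC class after isotype, without its 1 keratin-rich cell, was at 42.4 CPM. In DETCs by contrast, the 10 cells with most Socs3 held 3.23% and 2.69% of its UMIs.

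Socs1 (chromosome 16, 10782240 to 10785536, minus strand), a direct inhibitor of JAK kinase activity, was likewise highest in DETCs, with smaller differences. It was at 166 CPM (159.7 to 173) after isotype and 183 CPM (177 to 189) after Skint1 antibody in DETCs, at 129 and 137 CPM in αβ T cells and at 81.0 and 112 CPM in the ILC class. The αβ T over DETC log2 ratio was -0.37 (-0.67 to -0.085) after isotype and -0.41 (-0.69 to -0.14) after Skint1 antibody, both short of the fold. Without the 10 highest cells of each class the αβ T ratios were -0.86 and -0.84, past it. For the ILC class the ratio over DETCs was -1.04 (-1.60 to -0.53) after isotype and -0.71 (-1.06 to -0.37) after Skint1 antibody, both past the fold. The Skint1 antibody value was -0.52 without the keratin-rich cells, -0.53 relative to totals without mitochondrial and ribosomal genes and -0.58 when centered on the median gene, all short of it.

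Cish (chromosome 9, 107296026 to 107302784, plus strand), a classical STAT5 target whose protein competes at the receptor, went the other way. It was at 78.6 CPM (74.1 to 83.3) after isotype and 72.8 CPM (69.0 to 76.8) after Skint1 antibody in DETCs. It was at 141 CPM (116 to 169.7) and 151 CPM (125 to 179) in αβ T cells and at 118 CPM (85.7 to 157) and 146 CPM (118 to 178) in the ILC class. The αβ T over DETC log2 ratio was 0.84 (0.55 to 1.12) after isotype and 1.05 (0.77 to 1.31) after Skint1 antibody, and the ILC over DETC ratio was 0.58 (0.12 to 1.01) after isotype and 1.00 (0.69 to 1.30) after Skint1 antibody. DETCs therefore had the lowest Cish of the 3 classes in both libraries. Without the upper limit on genes per barcode the ILC ratios turned, to -0.59 and -0.47, and without the 10 highest cells the isotype value was -0.0018. For αβ T cells the isotype value without the 10 highest cells was 0.58, just inside the fold. Trdc-rich αβ T cells had 79.9 and 51.6 CPM of Cish, and the remaining αβ T cells 147 and 180.5 CPM. Antisense genes overlap Cish and Pim1, and how their reads were assigned is not given in the sources used here.

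Socs2 (chromosome 10, 95385362 to 95417180, minus strand), another STAT5-induced inhibitor best known for restraining growth hormone signaling, was also lower in DETCs than in αβ T cells. Its levels were 22.2 CPM (19.8 to 24.7) and 21.3 CPM (19.2 to 23.5) in DETCs and 62.4 CPM (46.3 to 82.3) and 70.5 CPM (53.7 to 91.0) in αβ T cells. The log2 ratio was 1.49 (1.03 to 1.93) after isotype and 1.73 (1.31 to 2.13) after Skint1 antibody, the largest positive ratio among the 10 genes for these classes in both libraries. In the ILC class Socs2 was at 36.6 and 33.4 CPM, from 14 and 22 UMIs, and both intervals of the ratio over DETCs held 0. That ratio turned without the upper limit on genes and without the 10 highest cells, to values between -0.94 and -1.12.

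Pim1 (chromosome 17, 29490753 to 29496112, plus strand), the output kinase, distinguished αβ T cells from both other classes. It was at 247 CPM (239 to 255) after isotype and 240.1 CPM (233 to 247) after Skint1 antibody in DETCs, at 529 CPM (480.3 to 582) and 525 CPM (477 to 576) in αβ T cells and at 264 CPM (215 to 320.5) and 289.6 CPM (250.01 to 334) in the ILC class. The αβ T over DETC log2 ratio was 1.10 (0.95 to 1.25) after isotype and 1.13 (0.98 to 1.27) after Skint1 antibody, and the ILC over αβ T ratio was -1.01 (-1.33 to -0.69) after isotype and -0.86 (-1.11 to -0.61) after Skint1 antibody. Of the 10 genes, Pim1 was the only one past the fold between the ILC class and αβ T cells in both libraries with intervals off 0. That ratio was -0.49 after isotype with at most 5% mitochondrial UMIs and -0.53 after Skint1 antibody when thinned. DETCs and the ILC class were closer, with log2 ratios of 0.095 (-0.20 to 0.38) after isotype and 0.27 (0.054 to 0.48) after Skint1 antibody. Without the upper limit on genes these turned to -0.82 and -0.59. Within αβ T cells, those with a Foxp3 UMI (17 and 12 cells), the regulatory T cell factor, had the highest Pim1, 1311 CPM (1053 to 1613) and 1012 CPM (709 to 1401). Cells with Cd4 but no Foxp3 (44 and 44) had 672 CPM (551 to 812) and 845 CPM (716 to 991), and cells with Cd8a or Cd8b1 (25 and 17) had 326 CPM (228 to 451) and 243 CPM (141 to 389). The intervals of the Foxp3 and CD8 subsets did not overlap in either library, whereas those of the Foxp3 and Cd4 subsets overlapped after Skint1 antibody.

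Set against all genes of at least 50 CPM, 7 of the 10 differed past the fold between αβ T cells and DETCs, 5 higher and 2 lower in the isotype library and 4 higher and 3 lower in the Skint1 antibody library. The share of all such genes past the fold was 31.3% and 29%. The median log2 ratio of the 10 was 0.54 and 0.19, beside -0.10 and -0.13 over all genes. Between the ILC class and DETCs it was 6 of 10 (2 higher, 4 lower) and 7 of 10 (3 higher, 4 lower), against 38.4% and 38.5% of all genes. The medians were -0.026 and 0.15, beside -0.063 and -0.12. Without the keratin-rich cells the count in the Skint1 antibody library was 4 of 10. Between the ILC class and αβ T cells it was 5 of 10, all lower, and 4 of 10 (1 higher, 3 lower), against 19.6% and 19.5%. Of the 6 genes that themselves reached 50 CPM in the comparisons with DETCs, 4 and 4 were past the fold for αβ T cells and 3 and 4 for the ILC class. Scarce members such as Jak3 and Stat5b move past the fold by counting error more easily than the genes of the background do.

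Cytokine receptors stand above this axis. Of 8 common gamma chain family receptor genes, 6 and 5 were higher and 1 and 1 lower past the fold in αβ T cells than in DETCs (isotype and Skint1 antibody), with list medians of 2.91 and 3.52 on the log2 scale. Over all genes of at least 50 CPM, 31.3% and 29% were past the fold, 10.5% and 8.47% higher and 20.8% and 20.5% lower, a background that also applies to the lists below, whose members had no minimum level. Il9r had the highest ratios, from 26 and 17 UMIs in αβ T cells against 2 and 2 UMIs in DETCs, at 7.89 (5.90 to 11.01) and 7.57 (5.50 to 10.73). Il7r was at 397 and 479 CPM in αβ T cells against 10.4 and 9.03 CPM in DETCs. Il2ra, the high-affinity interleukin receptor chain of activated and regulatory T cells, gave log2 ratios of 4.13 (3.60 to 4.65) and 4.55 (3.91 to 5.20). Il2rb, which pairs with the common chain Il2rg, was lower in αβ T cells, with ratios of -1.18 (-1.53 to -0.85) and -0.89 (-1.23 to -0.58). Among ILC cells 5 and 5 receptor genes were higher and 1 and 1 lower, Il7r being part of the rule that chose these cells. The background there was 38.4% and 38.5%, 15% and 12.4% higher and 23.5% and 26.1% lower.

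Among 5 other JAK and STAT genes, 3 and 1 were higher past the fold in αβ T cells than in DETCs and 0 were lower in either library, against 31.3% and 29% of all genes past the fold, with medians of 0.92 and 0.44. Stat4, the STAT of the interleukin-12 receptor, had the highest ratios, 3.42 (1.83 to 4.88) and 1.02 (-2.11 to 3.05), from 7 and 2 UMIs in αβ T cells. Tyk2, a JAK of the interferon receptors, had log2 ratios of 0.94 (0.30 to 1.53) and 0.53 (-0.18 to 1.16). Against DETCs, 3 and 2 of the 5 were higher in the ILC class and 0 lower, against 38.4% and 38.5% of all genes either way. Tyk2, at 1.70 and 1.18, and Jak2, at 1.64 and 1.13, were higher in both libraries. Among 10 other SOCS genes and inhibitors, 0 were higher and 5 and 6 lower in αβ T cells, with medians of -0.73 and -0.73. The phosphatases Ptpn1 (-1.27 (-1.56 to -0.98) and -1.15 (-1.43 to -0.88)) and Ptpn2 (-1.22 (-1.73 to -0.75) and -0.98 (-1.48 to -0.53)), which remove phosphate from JAKs and STATs, were both lower there. In the ILC class 2 and 0 were higher and 5 and 7 lower, with Ptpn1 at -1.70 and -2.09 and Ptpn2 at -2.36 and -1.40.

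Genes known as STAT5 targets in T cells lay on both sides of DETC levels. Of 12, 5 and 6 were higher and 4 and 3 lower past the fold in αβ T cells than in DETCs, with medians of 0.51 and 0.68, beside 31.3% and 29% of all genes past the fold and medians of -0.10 and -0.13 over them. The highest ratios were those of the cytokine genes Osm, at 2.48 (1.01 to 3.75) and 2.13 (0.82 to 3.24), and Lif, at 2.39 (-0.92 to 4.78) and 3.90 (1.63 to 5.97), the latter from 2 and 4 UMIs in αβ T cells. At the other end, the survival gene Bcl2 was at -1.88 (-2.32 to -1.47) and -1.55 (-1.95 to -1.18), and Pim2, a relative of Pim1, at -2.04 (-2.70 to -1.45) and -2.11 (-2.80 to -1.49). Pim1 and Pim2 thus went in opposite directions between these classes. Of these 12, 6 and 6 were higher and 4 and 3 lower in the ILC class, against 38.4% and 38.5% of all genes either way. Osm (3.32 and 2.05), Lif (2.45 and 3.83) and Bcl6 (2.94 and 2.85), a transcriptional repressor, had the highest ratios in the ILC class, from 17 or fewer UMIs each, and Pim2 the lowest, -3.91 and -3.35.

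Immediate early and heat shock genes also differed between the classes. The summed level of 8 immediate early genes (Fos, Fosb, Jun, Junb, Egr1, Nr4a1, Ier2 and Atf3) was 7570.2 and 7472 CPM in DETCs, 3741 and 4765 CPM in αβ T cells and 1964 and 3407 CPM in the ILC class. Heat shock genes followed the same order, at 4563 and 3255, 1476 and 1679.7, and 1000.2 and 1454 CPM. Socs3 and Socs1, like these lists, were highest in DETCs, and the part of these programs in the class differences was not tested.

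DETCs were therefore compared among themselves. Each cell was thinned to 2000 UMIs, and cells were ranked by their summed immediate early UMIs, a list that holds none of the 10 genes, into lower, middle and upper tertiles of 1190, 1058 and 1162 cells in the isotype library and 1660, 1473 and 1610 in the Skint1 antibody library. From lower to upper, the list went from 1399 to 15338 CPM and from 1287 to 15822 CPM. Tertiles are ranges of a continuous sum and not cell types, and 80 and 95 cells sat exactly at the upper bound.

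**Figure D3:**
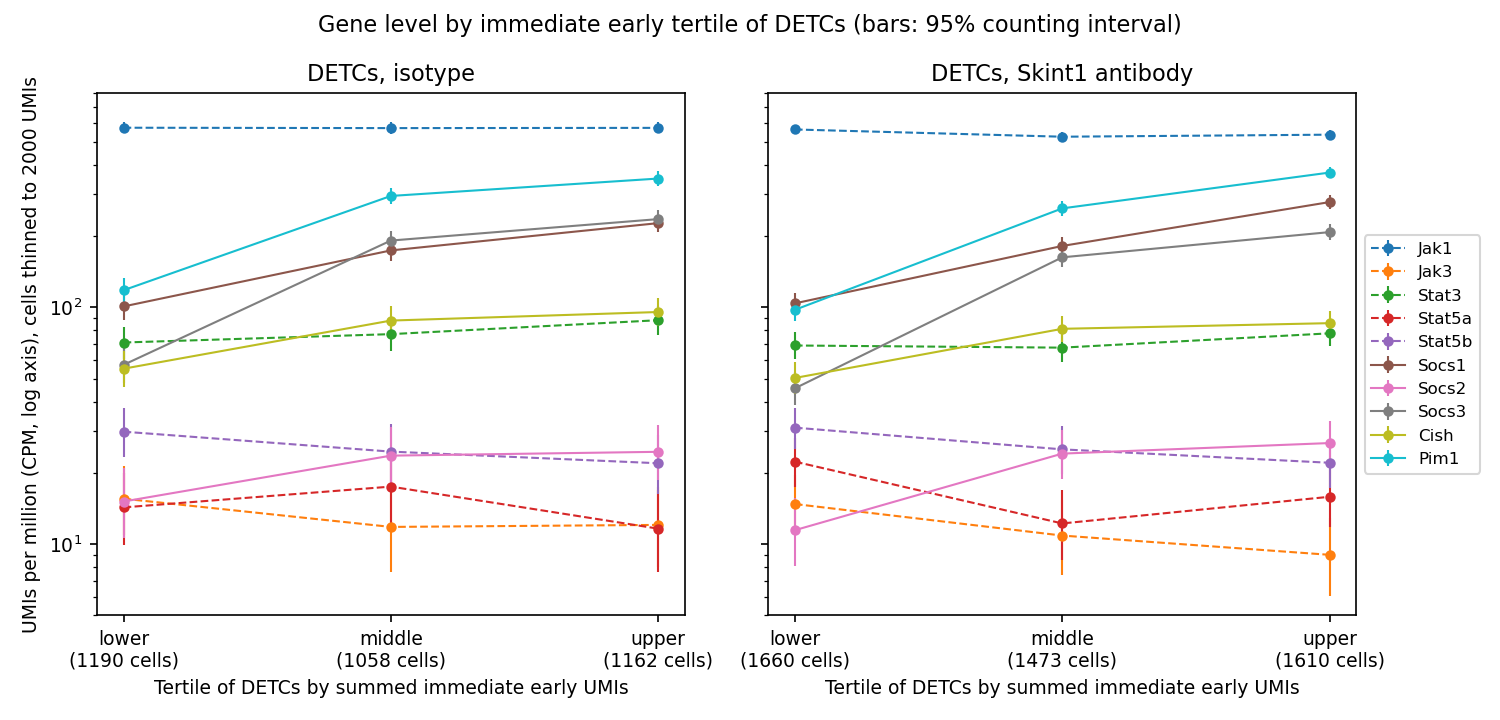
Level of each of the 10 genes (CPM, log axis) in the lower, middle and upper tertile of DETCs by summed immediate early UMIs, cells thinned to 2000 UMIs, with 1 panel per library, 1 line per gene (solid for the SOCS genes, Cish and Pim1) and bars for the exact Poisson 95% interval. Socs3, Pim1, Socs1, Cish and Socs2 are higher in the upper than in the lower tertile of both libraries, while Jak1 stays near 573 CPM in the isotype library.

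All 5 feedback and output genes were higher in the upper tertile. Socs3 was at 57.1, 191 and 236 CPM in the lower, middle and upper tertile after isotype and at 45.5, 163 and 208 CPM after Skint1 antibody. Its upper over lower log2 ratio was 2.04 (1.77 to 2.33) and 2.19 (1.93 to 2.46), the largest of the 10 genes in each library. Most of the gap lay between the lower and the middle tertile. The share of thinned cells with a Socs3 UMI was 9.58% (7.97 to 11.4) in the lower and 34.3% (31.5 to 37.1) in the upper tertile of the isotype library, and 8.13% (6.86 to 9.55) and 31.1% (28.9 to 33.4) in the other.

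Pim1 was at 118, 295 and 349.8 CPM after isotype and 97.6, 262 and 371 CPM after Skint1 antibody, with log2 ratios of 1.57 (1.37 to 1.77) and 1.93 (1.75 to 2.11). Socs1 was at 101, 174 and 227 CPM and at 104, 182 and 278 CPM, with ratios of 1.17 (0.95 to 1.40) and 1.42 (1.24 to 1.60). Both climbed at each step in both libraries. Cish moved less, from 55.0, 87.9 and 95.5 CPM and from 50.3, 81.1 and 85.7 CPM over the 3 tertiles, with ratios of 0.80 (0.48 to 1.12) and 0.77 (0.49 to 1.05). Socs2, at 15.1, 23.6 and 24.5 CPM and 11.4, 24.1 and 26.7 CPM, had ratios of 0.70 (0.070 to 1.34) and 1.22 (0.66 to 1.81).

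None of the kinases and STATs was higher past the fold in the upper tertile. Jak1 was at 574, 571 and 573 CPM in the isotype tertiles, a log2 ratio of -0.0020 (-0.11 to 0.11), against -0.073 (-0.17 to 0.022) after Skint1 antibody. Stat3 had small positive ratios of 0.31 (0.012 to 0.62) and 0.17 (-0.094 to 0.44). From all UMIs of these cells the Stat3 ratios were 0.26 (0.059 to 0.47) and 0.23 (0.042 to 0.41), off 0 in both libraries but inside the fold. Stat5a, Stat5b and Jak3 all had negative ratios, between -0.30 and -0.71. After isotype the intervals of all 3 held 0, and after Skint1 antibody those of Stat5b, -0.49 (-0.95 to -0.042), and Jak3, -0.71 (-1.43 to -0.021), did not. Which intervals held 0 depended on thinning. With all UMIs of the same cells Jak3 was at -0.42 (-0.94 to 0.085) after Skint1 antibody, inside the fold, and Stat5a was at -0.51 (-1.01 to -0.013) and -0.52 (-0.94 to -0.12). Of all genes of at least 50 CPM, 16.2% and 16.4% differed past the fold between these tertiles, against 5 of the 10 genes (5 higher) in the isotype and 6 of 10 (5 higher, 1 lower) in the Skint1 antibody library, the lower one being Jak3. Jak3 and Socs2 lay below 50 CPM.

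Depth, mitochondrial share and other programs were compared across the tertiles. Median UMIs per cell before thinning were 4052 and 4022 in the lower and upper isotype tertile and 3750.5 and 3514.5 in the Skint1 antibody ones. Median mitochondrial shares were 5.51% and 5.33%, and 5.55% and 5.47%. The heat shock list went from 2639 to 6133 CPM and from 2073 to 4212 CPM. The activation list (Xcl1, Gzmc and Tnfrsf9) went from 707 to 620.5 CPM after isotype and from 239 to 405 CPM after Skint1 antibody. The part of these programs in the gradient of the 5 genes was not tested.

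Other genes of the pathway were counted over the same tertiles. Of 12 STAT5 target genes, 4 and 4 were higher and 1 and 1 lower past the fold in the upper tertile (isotype and Skint1 antibody). Over all genes of at least 50 CPM the share was 16.2% and 16.4%, 9.98% and 10.6% higher and 6.26% and 5.79% lower, which is the background for the other lists here too. Pim3, the third PIM kinase, was at 61.3 CPM in the lower and 309.8 CPM in the upper isotype tertile, with log2 ratios of 2.34 (2.08 to 2.60) and 2.51 (2.28 to 2.75). Myc, the growth regulator, had ratios of 1.47 (0.56 to 2.47) and 3.26 (2.14 to 4.63) from low levels. Of 8 receptor genes, 1 and 2 were higher and 2 and 1 lower, with Il4ra at 1.67 (0.88 to 2.53) and 1.91 (1.18 to 2.70). Of 10 other inhibitors, 0 were higher and 2 and 2 lower, and of 5 other JAK and STAT genes 0 and 1 were higher and 2 and 1 lower.

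DETCs were also split by heat shock, division and activation genes. For heat shock genes (at least 3 UMIs against 0), 2 of the 10 were past the fold in the isotype library (1 higher, 1 lower) and 1 in the other (0 higher, 1 lower). The share over all genes of at least 50 CPM was 2.75% and 0.665%. The genes past the fold were Stat5a and Stat5b after isotype and Stat5a after Skint1 antibody, both below that level. Stat5a was on opposite sides of 0 in the libraries. It was the higher one after isotype, 0.76 (-0.37 to 2.13) and unthinned 0.64 (-0.069 to 1.43), with intervals that held 0, and the lower one after Skint1 antibody. Without thinning, the isotype Stat5b value went from -0.90 (-1.46 to -0.30) to -0.45 (-0.88 to 0.0043) and the Skint1 antibody Stat5a value from -0.69 (-1.31 to -0.037) to -0.38 (-0.87 to 0.14), both inside the fold. The isotype Socs2 value went from 0.38 (-0.41 to 1.27) to 0.66 (0.071 to 1.30), past the fold. Cells with at least 2 UMIs of the division genes numbered only 48 and 38. Among them Jak3 had 0 UMIs in either library and Socs2 had 0 after Skint1 antibody, and neither was counted. Of the genes counted for this split, 3 (1 higher, 2 lower) and 4 (2 higher, 2 lower) were past the fold. The share over all genes of at least 50 CPM was 36.5% and 41.9%. Jak1 was lower in dividing cells with all UMIs, at -0.67 (-0.99 to -0.36) and -0.73 (-1.10 to -0.39), past the fold in both libraries. In thinned cells Jak1 was at -0.54 (-1.04 to -0.083) and -0.52 (-1.10 to 0.0057), inside the fold. Pim1 had division ratios of 0.26 (-0.32 to 0.79) and 0.67 (0.090 to 1.20) in thinned cells but 0.72 (0.42 to 1.02) and 0.14 (-0.27 to 0.52) with all UMIs, so which library was past the fold depended on thinning. For the activation genes Xcl1, Gzmc and Tnfrsf9 (at least 2 UMIs against 0), 2 of the 10 (2 higher) and 0 of the 10 were past the fold, against 1.81% and 1.89%. The higher ones after isotype were Pim1 and Stat5a, of which Stat5a lay below the 50 CPM of that background. Stat5a had activation ratios of 0.97 (0.21 to 1.68) and 0.082 (-0.96 to 0.97), and unthinned 0.81 (0.33 to 1.28) and -0.0052 (-0.74 to 0.65). Pim1 was at 344 against 226 CPM and 309 against 235 CPM there, log2 ratios of 0.60 (0.42 to 0.78) and 0.40 (0.17 to 0.61). Cish had an activation ratio of 0.58 (0.19 to 0.96) after Skint1 antibody. After isotype it was -0.39 (-0.80 to -0.0041), and -0.18 (-0.45 to 0.074) with all UMIs.

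Single DETCs held few molecules of most of these transcripts. After thinning to 2000 UMIs, 65.5% (63.9 to 67.1) and 63.8% (62.4 to 65.1) of DETCs had a Jak1 UMI, 30.8% (29.2 to 32.4) and 29.9% (28.6 to 31.2) a Pim1 UMI and 23.7% (22.3 to 25.2) and 20.9% (19.7 to 22.1) a Socs3 UMI. The shares for Stat5a were 2.79% and 3.27%, and for Jak3 2.64% and 2.30%. Free RNA, estimated from barcodes of at most 100 UMIs, would give 0.903% and 1.24% of cells a Jak1 UMI and 0.394% and 0.494% a Socs3 UMI, below the measured shares. Unthinned, at median depths of 4027.5 and 3577 UMIs, Socs3 was seen in 36.8% and 32.1% of DETCs and Jak1 in 85.5% and 81.9%.

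**Figure D4:**
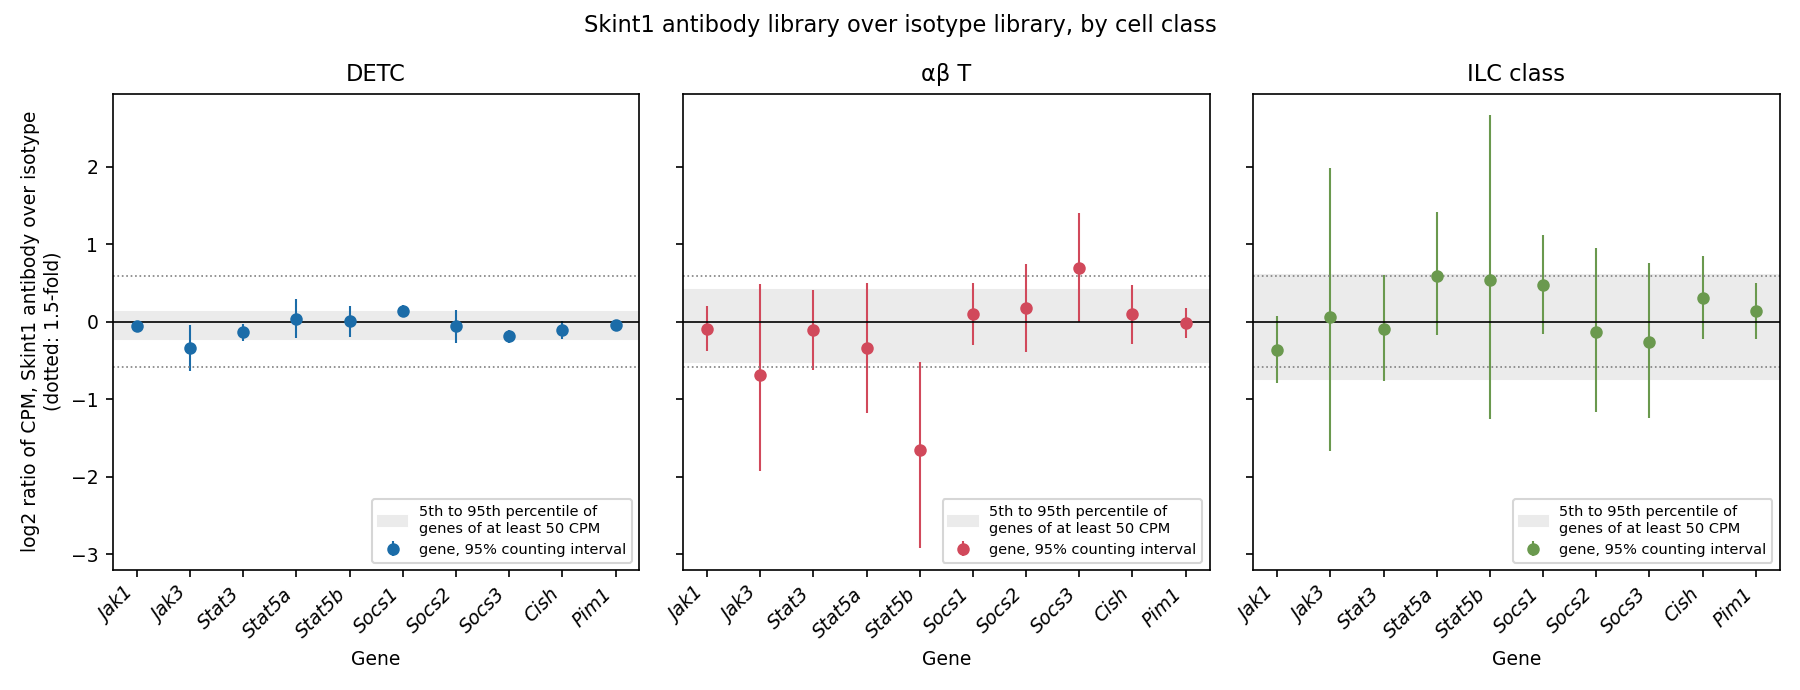
Log2 ratio of CPM in the Skint1 antibody over the isotype library for the 10 genes in DETCs, αβ T cells and the ILC class, with bars for the exact 95% interval and dotted lines at 1.5-fold. All 10 DETC points lie between -0.34 (Jak3) and 0.14 (Socs1), inside 1.5-fold.

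Between the treatments, DETCs as a whole showed ratios inside 1.5-fold for each of the 10 genes. None of the 10 was past the fold, against 0.245% of all genes, whose median log2 ratio was -0.03. Socs3 went from 156 to 137 CPM, a log2 ratio of Skint1 antibody over isotype of -0.19 (-0.27 to -0.10). Socs1 went from 166 to 183 CPM, 0.14 (0.064 to 0.21). These inhibitors lay on opposite sides of 0, with intervals apart. Jak1 (-0.056 (-0.099 to -0.014)), Jak3 (-0.34 (-0.63 to -0.045)) and Stat3 (-0.14 (-0.25 to -0.025)) had ratios below 0, with intervals off 0. Over all genes of at least 50 CPM, the 5th to 95th percentile of this ratio ran from -0.22 to 0.13. Jak1, Stat3 and Socs3 lay inside that range. Socs1 lay just above it, and Jak3, which was below 50 CPM, lay under it. Cish had -0.11 (-0.22 to 0.0044), Pim1 -0.041 (-0.10 to 0.023), Socs2 -0.059 (-0.27 to 0.16), Stat5a 0.039 (-0.21 to 0.29) and Stat5b 0.0083 (-0.19 to 0.21), all with intervals that held 0. Even for the scarce Stat5a and Stat5b these intervals lay inside 1.5-fold.

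The summed immediate early level of DETCs was close between libraries, at 7570.2 and 7472 CPM, whereas the activation list was at 672 and 324 CPM and heat shock at 4563 and 3255 CPM, both lower in the Skint1 antibody library. Treatment ratios were therefore also taken inside the tertiles and the other splits. In the upper tertile Socs1 had 0.30 (0.14 to 0.45) and Socs3 -0.18 (-0.35 to -0.017), the latter -0.11 (-0.22 to 0.013) without thinning. Pim1 had 0.084 (-0.046 to 0.21) there, and 0.13 (0.043 to 0.23) without thinning. In the lower tertile Socs1 had 0.043 (-0.20 to 0.29), Socs3 -0.33 (-0.67 to 0.016) and Pim1 -0.27 (-0.51 to -0.039). Without thinning the lower-tertile Socs3 value was -0.36 (-0.59 to -0.12) and that of Pim1 -0.27 (-0.43 to -0.099), both off 0. Of the 80 ratios over the upper and lower parts of the 4 splits, 9 were past the fold in thinned cells and 8 with all UMIs, not counting a gene with 0 UMIs on either side. With intervals off 0 as well, these were 5 and 4, 3 of them in both. Shares past the fold, whatever the interval, were also taken over all genes of at least 50 CPM, a level that Jak3 and Stat5a did not reach. In the high and low parts of thinned cells they were 0.653% and 0.27% for immediate early genes, 0.422% and 2.06% for heat shock, 39.6% and 0.279% for division and 4.87% and 0.14% for activation. The 3 found with and without thinning were those of Jak3, Cish and Socs1. Jak3 in cells high in heat shock genes had -0.64 (-1.21 to -0.089) and unthinned -0.61 (-0.99 to -0.22). Cish in cells high in activation genes had 0.74 (0.22 to 1.27) and unthinned 0.61 (0.26 to 0.96). Socs1 in the few dividing cells had -1.66 (-3.70 to -0.031) and unthinned -0.95 (-1.91 to -0.062). Pim1 in dividing cells was past the fold only without thinning, -0.62 (-1.12 to -0.13) against 0.34 (-0.46 to 1.13) in thinned cells. Stat5a was past the fold in thinned cells of the lower immediate early tertile, 0.64 (0.037 to 1.27) from 34 against 74 UMIs, but had 0.19 (-0.21 to 0.60) from 88 against 132 UMIs without thinning. In cells without heat shock UMIs Stat5a had 1.46 (0.25 to 2.89) from 7 against 30 UMIs and unthinned 0.71 (-0.11 to 1.59), whose interval held 0. The part of the activation and heat shock lists in the treatment ratios was not tested.

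Other genes of the pathway were counted between treatments in DETCs. Of 5 JAK and STAT, 10 inhibitor and 12 STAT5 target genes, 0 were past the fold in either direction, and of 8 receptor genes 1 was higher and 1 lower, against 0.245% of all genes of at least 50 CPM, 0% higher and 0.245% lower. Both receptor genes lay below that level. The lower one, Il2ra, was at 4.43 CPM after isotype and 2.25 CPM after Skint1 antibody, a log2 ratio of -0.98 (-1.58 to -0.40). The higher one, Il15ra, rested on 11 and 24 UMIs, 0.77 (-0.31 to 1.95). Il2rb, at 215 and 179.8 CPM, had -0.26 (-0.33 to -0.19), while its partner Il2rg had 0.0098 (-0.033 to 0.053). Among the targets, the cell cycle gene Ccnd3 had 0.26 (0.16 to 0.35) and the survival gene Bcl2l1 0.36 (0.089 to 0.64). The phosphatase gene Ptpn2 had -0.22 (-0.32 to -0.12).

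In αβ T cells 3 of the 10 genes were past the fold between treatments, 1 higher and 2 lower. The share over all genes of at least 50 CPM was 4.99%. The 3 genes past the fold all had means below that level, and 0 of the 6 that reached it were past the fold. Stat5b went from 33.7 to 10.8 CPM, 27 against 9 UMIs, a log2 ratio of -1.65 (-2.92 to -0.52) that was -0.50 without the upper limit on genes. Jak3 had -0.69 (-1.93 to 0.49). Socs3 went from 36.2 to 58.6 CPM, 0.69 (0.0026 to 1.41), but without the Trdc-rich cells its levels were 27.6 and 29.6 CPM. Pim1 (-0.013 (-0.21 to 0.18)), Cish (0.094 (-0.28 to 0.47)) and Socs2 (0.18 (-0.39 to 0.75)) stayed inside the fold. In the ILC class only Stat5a was past the fold, 52.2 against 78.9 CPM or 0.59 (-0.17 to 1.42), against 14.6% of all genes. Socs3 had -0.26 (-1.24 to 0.76) there, and -1.81 without the keratin-rich cells. All 10 intervals of the ILC class held 0, so no treatment difference was detectable there at this depth.

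Genes with the most similar pattern were sought over the 6 class and library groups, among 2685 genes of at least 50 CPM, by the Euclidean distance of centered log2(CPM + 5). Closest to Cish were Mxd1 (0.19), Cox5a (0.21) and Ndufb7 (0.26). Closest to Pim1 were Itpkb (0.31), H2-D1 (0.34) and Traf1 (0.39). Closest to Socs3 were Ugcg (0.23), Rasgrp4 (0.30) and Exoc3 (0.40), to Socs1 Srsf7 (0.18), Upf3b (0.19) and Dctn4 (0.26), and to Socs2 H2-K1 (0.40), Cmtm7 (0.40) and AI467606 (0.41). None of the nearest genes was another of the 10, but Jak3, Stat5a, Stat5b and Socs2 had means below 50 CPM and could not be found. Across single DETCs, the correlation of thinned UMIs between any pair of the 10 was weak, the highest being Socs3 with Pim1 at Pearson's r of 0.0755 and 0.111 over 3410 and 4743 cells, too sparse to read.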

How the data were processed

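The deposited matrices hold raw UMI counts per gene and barcode, which the authors made with Cell Ranger 3.0.2 on the mm10 (GRCm38) build, 1 matrix per library. These counts were read with Python 3.11.15, numpy 2.4.6, scipy 1.17.1 and pandas 2.3.3, and plotted with matplotlib 3.10.9. Barcodes and classes were set by the filters and marker rules given in the report, and UMIs were summed per class and library. Library totals were 27272211 (isotype) and 32450957 (Skint1 antibody) UMIs. No normalization beyond CPM was used. Levels carry exact Poisson and shares exact Clopper-Pearson 95% intervals. Log2 ratios carry exact conditional binomial intervals. Counts over all genes past the fold used genes of at least 50 CPM as the mean of both sides, while counts over the 10 genes and the pathway lists had no minimum level. With 1 library per treatment no test was run. Shares and cell states used cells thinned to 2000 UMIs, and shallower cells were left out. Ratios from all UMIs of the same cells were an alternative, which for the treatment ratios was added after seeing the data.

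All 10 genes are named, and other pathway genes come from 4 lists, with some of the highest and lowest of each list given values. A gene of these lists is not reported here. The 10 genes and the lists were chosen with earlier results of these data known. No doublet caller was run. Barcodes over 2500 genes were left out, and leaving out the deepest 5% of cells was an alternative. Alternatives that removed keratin-rich ILC cells (at least 5 keratin UMIs) and Trdc-rich αβ T cells (at least 3 Trdc UMIs) were added after seeing the data. On simulated data for the treatment comparison in DETCs (2871 genes, 200 of them changed by 1 log2 unit), 100% of the changed genes were recovered and 94.7% of the intervals held the true value. The treatment ratios of the 10 genes in DETCs lay between -0.34 and 0.14, and recovery of ratios that small was not tested. Variation between libraries was not tested either, since each treatment had 1 library. A planned alignment of the proteins was not made. Gene positions follow GENCODE on GRCm38, and promoter windows follow RefSeq on GRCm38.p6.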

Additional observations from a re-analysis of the deposited data

Results flagged for a closer look

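Socs3 differed in direction between classes under the same treatment contrast, with every cell class represented by 1 library per treatment, so the difference between the classes was not tested. Its log2 ratio of Skint1 antibody over isotype was -0.19 in DETCs and 0.69 in αβ T cells. The αβ T value rested on 29 UMIs in the isotype and 49 in the Skint1 antibody library, and 9 and 30 of these lay in cells with at least 3 Trdc UMIs. With αβ T cells also required to lack Trdc and to hold a Trbc1 or Trbc2 UMI, it was -0.30.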

How the results depend on the processing

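In DETCs as a whole, none of the 10 genes was past 1.5-fold between treatments under the alternatives tried. Leaving out a library was not applicable, since each treatment had 1. No paired analysis was possible because each treatment had 1 library and no result comes from a test. Of 1057 log2 ratios between classes or treatments recomputed under alternatives, 106 changed sign, 15 of them where the reported ratio was past the fold, and 42 that were past the fold came inside it. Others went from inside the fold to past it. One was Socs1 for αβ T cells over DETCs, at -0.65 with the strict gate (isotype) and -0.86 and -0.84 without the 10 highest cells. Removing the 10 highest cells of a gene takes a far larger share of a small class than of DETCs.

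For αβ T cells over DETCs, Jak3 was -0.40 (isotype) and Stat5a -0.093 (Skint1 antibody) without the 10 highest cells, and Stat5a was -0.15 after thinning. For the ILC class over DETCs, Socs2 was -0.998 and -0.94 without an upper limit on genes and -1.12 and -0.96 without the 10 highest cells (isotype and Skint1 antibody), and Cish was -0.59 and -0.47 without the limit. Without the limit Socs3 was -0.089 and -0.34, and Stat5a 0.19 and 0.81. For the ILC class over αβ T cells in the Skint1 antibody library, Stat5a was -0.00052 without the limit, and Socs3 was 0.87 without the limit, 1.29 with at most 5% mitochondrial UMIs, 0.66 with the strict gate and 0.24 without Trdc-rich cells. Between treatments, Socs3 in αβ T cells was -0.30 with the strict gate, and Stat5a in the ILC class was -0.45 with at most 5% mitochondrial UMIs. For dividing DETCs, Stat5a was -0.26 (isotype) and -0.18 (Skint1 antibody) with at least 1 division UMI, and -0.17 (Skint1 antibody) unthinned.

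Counts of the 10 genes past the fold moved as follows. For the ILC class over DETCs in the Skint1 antibody library, the count went from 7 to 4 without keratin-rich cells and to 3 at 2-fold. For the ILC class over αβ T cells it went from 5 to 9 without the limit, 3 after thinning and 2 at 2-fold (isotype), and from 4 to 8 without the limit and 2 at 2-fold (Skint1 antibody). Between treatments in αβ T cells it went from 3 to 1 without the limit and 1 at 2-fold. Between treatments in the ILC class, where the count was 1, it was 0 with the strict gate, without cells meeting both rules and at 2-fold. It was 2 there without the limit, without the deepest 5% of cells and when centered on the median gene, 3 with per-cell means and after thinning, and 4 with at most 5% mitochondrial UMIs, without the 10 highest cells and without keratin-rich cells. In DETC states it went from 2 to 1 for activation (isotype) and from 4 to 2 for division (Skint1 antibody) with at least 1 UMI, from 3 to 6 for division (isotype) unthinned, and from 1 to 0 for heat shock (Skint1 antibody) under both changes. The causes were not tested beyond what the construction of each alternative shows. Depth limits Jak3, Stat5a and Stat5b in the small classes, where 1 UMI is worth over 1 CPM.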

Other observations

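Barcodes over 2500 genes that met the DETC rule, 312 in the isotype and 287 in the Skint1 antibody library, were not used above. Their Socs3 level was 106 and 120 CPM and their Pim1 level 196 and 194 CPM, with Jak1 at 470.1 and 468 CPM. All of these lay below the levels of the kept DETCs.

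Cish in the αβ T subsets was at 177 CPM (91.3 to 309) and 281 CPM (135 to 517) in cells with Foxp3, 144 CPM (91.6 to 217) and 157 CPM (104 to 227) in cells with Cd4 and no Foxp3, and 163 CPM (96.5 to 257) and 143 CPM (68.5 to 263) in cells with Cd8a or Cd8b1. The intervals overlapped within each library, and no order could be read at 10 to 28 UMIs.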
